A study of Mus musculus with 20 samples.

Results

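The integrated stress response was followed through 10 genes, Atf4, Atf5, Ddit3, Trib3, Chac1, Asns, Sesn2, Ddit4, Psat1 and Phgdh, taken by symbol from the 49315 genes of an RNA sequencing table of mouse liver. All 20 mice belonged to a diet-induced obesity model of steatohepatitis and ate the AMLN diet throughout. Over 8 weeks, 10 mice were dosed with S217879 (30 mg/kg, once a day by mouth) and 10 with its vehicle alone, 1% HEC. The series title describes S217879 as a compound that selectively breaks the NRF2-KEAP1 interaction, by which KEAP1 normally holds the transcription factor NRF2 in check. The sources used here do not state strain, sex or age, and no group on a normal diet was analysed here. Each library is 1 separately numbered mouse.

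The integrated stress response begins with kinases that sense stalled amino acid supply, misfolded protein in the endoplasmic reticulum, viral RNA or lack of haem. Each phosphorylates the translation factor eIF2, which slows protein synthesis in general but favours translation of a few mRNAs with upstream open reading frames, among them those of ATF4, ATF5 and CHOP (the product of Ddit3). ATF4 protein then switches on genes for amino acid synthesis and transport, for glutathione turnover and for inhibitors of growth signalling, so its activity is set largely by translation and its mRNA is a poor gauge of it. Neither eIF2 phosphorylation nor any protein was measured here.

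Of the 10 genes, 8 reached a mean of 1 TPM (a transcript's share of its library, per unit of gene length) and were tested; Asns at 0.578 and Phgdh at 0.648 lay just under that minimum and Psat1 at 1.03 just over it. S217879 livers had more mRNA of 4 genes, Trib3, Chac1, Ddit4 and Sesn2, and less of Atf5, by limma with an adjusted p under 0.05. Over all 13401 tested genes 6.07% were called higher and 23.5% lower, against 4 and 1 of these 8. The 4 that rose are all known ATF4 targets, while Atf4 itself and Ddit3 were not called. The median log2 difference of the 8 was 0.32, and that of all tested genes was -0.12.

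A few facts of the whole table bear on every value. Nqo1, a classical NRF2 target, was 14.6 ± 3.52 TPM (SD, n = 10) in vehicle and 102 ± 13.9 in S217879 livers, with no overlap. In vehicle replicates 6 and 7, 4 rRNA-type genes took 58.2% and 50.7% of all TPM, against at most 31.4% in the other vehicle libraries and 14.1% to 38.1% in the S217879 libraries, which lowers every other gene in those 2 libraries. Scaling by median of ratios, which sets libraries level on the typical gene, moved the median of all genes by 0.11 on the log2 scale and changed the calls over all genes from 813 higher and 3151 lower to 3561 and 3634 (26.6% and 27.1%). For some genes and lists, differences are therefore also given relative to the median gene or after this scaling. Where no scale is named, a difference is as deposited. Among cell type markers, 5 of 8 macrophage and 8 of 8 stellate and fibroblast genes were lower (summed TPM 321 to 702 against 297 to 568, and 268 to 503 against 199 to 365) and 3 of 6 endothelial genes were higher (64.0 to 135 against 115 to 154). Of the hepatocyte markers, 1 of 7 was higher and 3 were lower (31106 to 70161 against 36610 to 57548), so the libraries carry the markers of liver. Of 4 tested cholangiocyte markers 2 were lower (178 to 466 against 89.4 to 243), and 0 of 6 tested lymphocyte and neutrophil markers were called. Of 10 exocrine pancreas markers, summing to 10.3 to 19.2 TPM in vehicle and 22.6 to 60.9 in S217879 livers, only Cela1 reached the minimum; it was higher (means 14.8 and 31.1 TPM), and Cpa1, Cpb1 and Amy2a5 were at 0 in all 20. Of 6 fat cell markers, summing to 34.6 to 97.6 and 74.0 to 237, 2 were tested: Cfd was higher (20.8 and 102 TPM) and Plin4 lower (43.1 and 28.3 TPM). In bulk tissue, fewer cells of a type and less RNA per cell cannot be told apart, and the part of cell makeup in the results below was not tested.

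Before the values, matches to short promoter sequences are shown, because ATF4 and NRF2 are known to act through sequences of these kinds. ATF4 binds with C/EBP proteins to a composite element whose core is searched here as TGATGNAA, and NRF2 binds with small MAF proteins to the antioxidant response element, searched here as TGACNNNGC. Both strands were read from 250 bases before to 50 after each transcription start (RefSeq, GRCm38.p6; 12 windows, all 10 genes matched). The composite core was present in 3 of the 10 genes and in 4.51% of all 27025 genes with a window, and the antioxidant core in 3 of the 10 and in 13.99% of all genes. The patterns differ at the fourth letter, so no stretch can match both in the same register, and none of the 6 matches overlapped another. A match is a description of the letters only.

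The 3 composite cores are printed in the motif's own direction, 5′ to 3′, with the core in capitals. The Chac1 core lies at -193 to -186 from the start (chr2:119351038-119351067 for the printed bases, minus strand). In Trib3 the core lies 14 to 21 bases after the RefSeq start (chr2:152344028-152344057, plus strand), and in Asns at -23 to -16 (chr6:7693214-7693243, minus strand). By the GENCODE gene bounds given further on, the Trib3 core lies before the gene and the Asns core inside it.
Chac1: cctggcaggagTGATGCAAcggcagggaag
Trib3: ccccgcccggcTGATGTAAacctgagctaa
Asns: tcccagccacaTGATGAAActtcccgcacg

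The 3 antioxidant cores are printed in the same way. That of Sesn2 lies at -36 to -28 from the start (chr4:132510474-132510503, minus strand), that of Phgdh at -53 to -45 (chr3:98340003-98340032, plus strand) and that of Asns at -172 to -164 (chr6:7693362-7693391, plus strand). These positions are counted from the RefSeq start, and by the GENCODE bounds the Sesn2 core lies inside the gene.
Sesn2: ccgcagcgggcTGACAGAGCcgggcgagcg
Phgdh: ttaaactctgcTGACTCCGCctccccgggc
Asns: ttaaggtgctgTGACACTGCaggcaggata

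Asns was the member with both cores. Ddit4, which rose, and Atf4, Atf5, Ddit3 and Psat1 had neither core in these windows. For Chac1 the stretch of 237 bases that ends at the GENCODE start of the gene is printed along the plus strand (chr2:119350992-119351228, GRCm38.p6), so its composite core appears in capitals as the reverse complement of the line above.
Chac1 upstream: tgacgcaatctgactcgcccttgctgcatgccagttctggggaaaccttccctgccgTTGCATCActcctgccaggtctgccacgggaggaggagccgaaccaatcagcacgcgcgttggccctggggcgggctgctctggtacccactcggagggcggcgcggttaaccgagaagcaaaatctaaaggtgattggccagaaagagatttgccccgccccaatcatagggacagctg

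**Figure D1:**
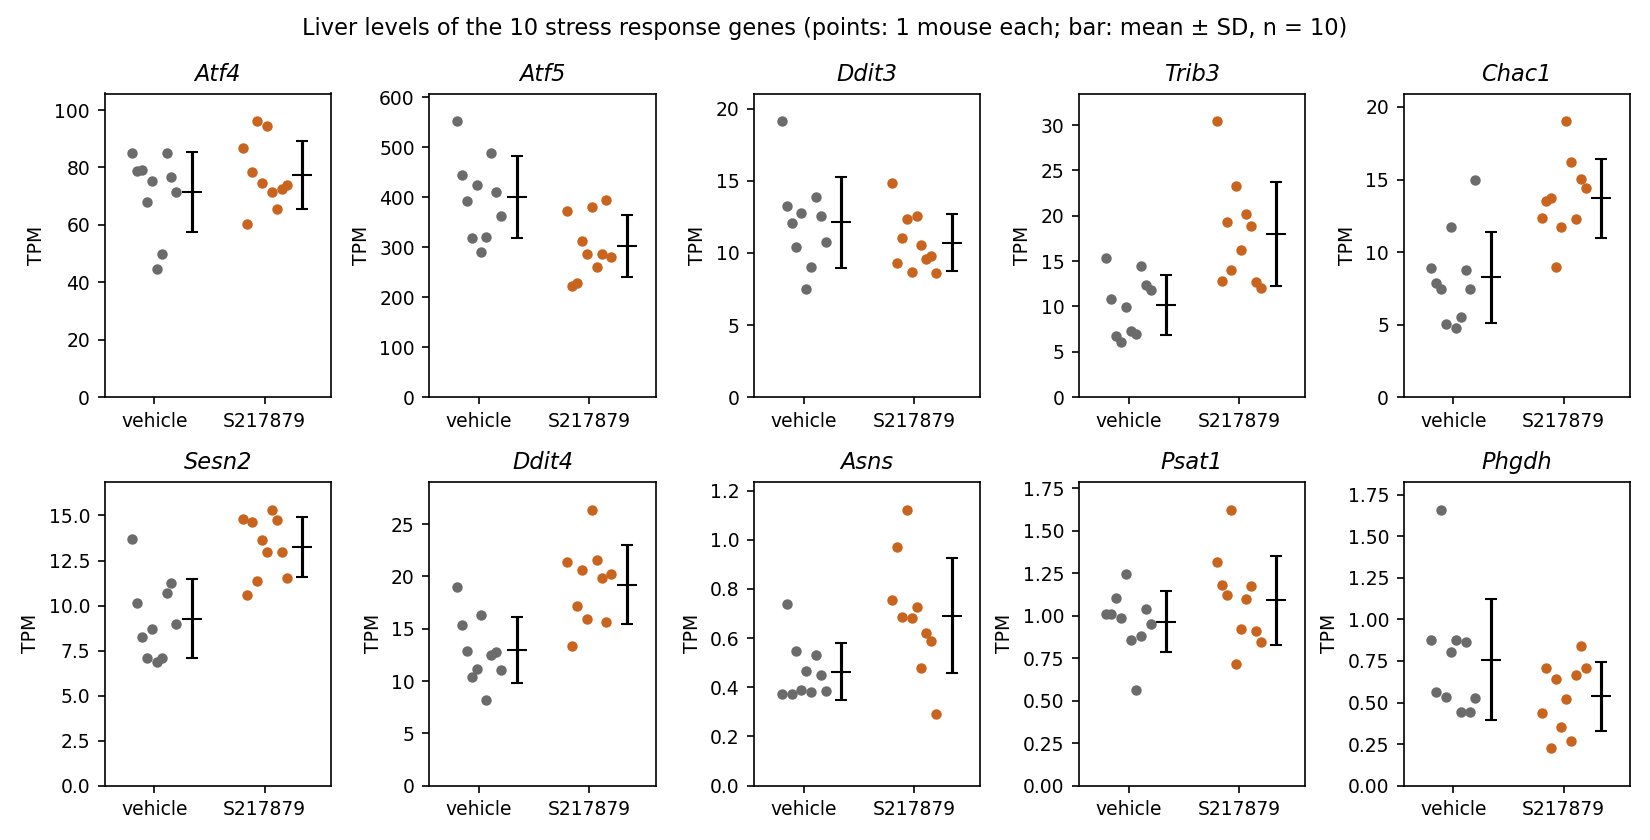
Level of each gene in TPM as deposited (vertical axis, from 0, a scale of its own in each panel) in 10 vehicle and 10 S217879 livers; each point is 1 mouse and the bar is the mean ± SD. In the panels of Trib3, Chac1, Sesn2 and Ddit4 every S217879 liver is above the vehicle median, and in that of Atf5 every one is below it.

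The transcription factors come first. Atf4 (chr15:80255184-80257541, plus strand, GRCm38) encodes the central activator of the response. Its level was 44.5, 75.9 and 85.2 TPM (lowest, median and highest) in vehicle and 60.2, 74.4 and 96.1 in S217879 livers. The groups overlapped almost entirely, with 4 S217879 livers above the vehicle median and 6 below, and the 2 lowest values of all 20 were vehicle replicates 6 and 7. As deposited Atf4 was not called (means 71.4 ± 13.9 and 77.4 ± 11.8, SD, n = 10; log2 difference 0.13, SE 0.13, limma adjusted p = 0.467). After median-of-ratios scaling it was 0.25 higher with limma adjusted p = 0.0014. Without vehicle replicates 6 and 7 the difference was -0.01 as deposited (limma adjusted p = 0.915) and 0.23 after scaling (limma adjusted p = 0.00628). Scaling reduced the spread of Atf4 between vehicle livers, from a coefficient of variation of 19.4% to 5.52%, and between S217879 livers from 15.2% to 12.1%. Of 34 alternatives run for Atf4, 3 called it higher, each with median-of-ratios scaling, and 31 did not call it.

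Atf5 (chr7:44812256-44816658, minus strand), a close relative of ATF4 that is translated by the same mechanism and is abundant in liver, fell. Vehicle livers held 291, 401 and 552 TPM and S217879 livers 222, 287 and 394. All 10 S217879 livers lay below the vehicle median and 6 of them below the lowest vehicle liver, so the groups overlapped in part. Means were 400.3 ± 81.7 and 302 ± 61.8 (log2 difference -0.41, SE 0.14, limma adjusted p = 0.0209), or -0.29 relative to the median gene. It kept the direction in all 35 alternatives and was called in 34, the exception being the fit without vehicle replicate 1, the highest of all Atf5 values (limma adjusted p = 0.0515). Atf5 shares 82 exonic bases, 4.11% of its own, with Nup62 and Il4i1 on the opposite strand, and the sources used here do not say whether counting used strand.

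Ddit3 (chr10:127290774-127296288, plus strand) encodes CHOP, a factor tied to cell death in prolonged stress. Its level was 7.50, 12.3 and 19.1 TPM in vehicle and 8.64, 10.2 and 14.8 in S217879 livers. The S217879 range lay inside the vehicle range, with 7 livers below the vehicle median. It was not called (12.1 ± 3.16 and 10.7 ± 1.99; log2 difference -0.15, SE 0.13, limma adjusted p = 0.387), and after median-of-ratios scaling the difference was -0.04 with adjusted p = 0.741. Without vehicle replicates 6 and 7 it was called lower, by -0.28 (limma adjusted p = 0.0354), in a fit that called 54.5% of all tested genes lower. Ddit3 shares 68 exonic bases, 3.97% of its own, with the opposite-strand methionyl-tRNA synthetase gene Mars. It also shares 105, or 6.13%, with another protein-coding Ddit3 entry on the same strand, which is absent from the deposited table.

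The targets follow. Trib3 (chr2:152337422-152344032, minus strand) encodes a pseudokinase that ATF4 and CHOP induce and that in turn binds and restrains both ATF4 and the insulin-signalling kinase AKT. Vehicle livers held 6.07, 10.4 and 15.3 TPM and S217879 livers 12.1, 17.6 and 30.4. All 10 S217879 livers exceeded the vehicle median and 6 exceeded the highest vehicle liver; the top value was S217879 replicate 1. Means rose from 10.2 ± 3.33 to 18 ± 5.77 (log2 difference 0.80, SE 0.19, limma adjusted p = 0.00222), 0.92 above the median gene.

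Chac1 (chr2:119351229-119354381, plus strand) encodes a cyclotransferase that breaks down glutathione, and is one of the most responsive ATF4 target genes. Its level was 4.75, 7.69 and 14.9 TPM in vehicle and 8.95, 13.6 and 19.03 in S217879 livers. Again all 10 S217879 livers lay above the vehicle median, and 3 lay above the highest vehicle liver, replicate 10. The means were 8.25 ± 3.15 and 13.7 ± 2.73 (log2 difference 0.75, SE 0.16, limma adjusted p = 9.4e-04).

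Sesn2 (chr4:132492032-132510501, minus strand) encodes sestrin 2, a leucine sensor that holds back the growth kinase complex TORC1 and that is known as a target of ATF4, p53 and NRF2 alike. Vehicle livers held 6.87, 8.84 and 13.7 TPM and S217879 livers 10.6, 13.3 and 15.3. All 10 were above the vehicle median and 4 above the highest vehicle liver, replicate 1. Means rose from 9.28 ± 2.18 to 13.2 ± 1.67 (log2 difference 0.51, SE 0.11, limma adjusted p = 6.0e-04).

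Ddit4 (chr10:59949669-59951834, minus strand) encodes REDD1, another inhibitor of TORC1, which glucocorticoids, low oxygen and ATF4 induce. Its level was 8.22, 12.7 and 19 TPM in vehicle and 13.3, 20.02 and 26.4 in S217879 livers. Every S217879 liver exceeded the vehicle median and 6 exceeded the highest vehicle liver, replicate 1. Means rose from 12.98 ± 3.16 to 19.2 ± 3.76 (log2 difference 0.56, SE 0.13, limma adjusted p = 7.5e-04). After median-of-ratios scaling the highest vehicle liver was replicate 6, at 23.8. Only S217879 replicates 6 and 7 exceeded it, at 26.9 and 25.3. The coefficient of variation in vehicle livers went from 24.4% to 34.5%, and the scaled difference was 0.67 (limma adjusted p = 5.07e-04).

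Trib3, Chac1, Sesn2 and Ddit4 kept direction and call in all 35 alternatives, scalings and single left-out libraries included. Leaving out vehicle replicates 6 and 7 gave log2 differences of 0.69, 0.61, 0.42 and 0.53. None of the 4 separated the groups fully: over all tested genes 1.84% were higher, and 1.89% lower, with no overlap between groups.

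The amino acid enzymes were low, with means of about 1 TPM or less. Asns (chr6:7675169-7693254, minus strand), asparagine synthetase and a textbook ATF4 target, was at 0.371, 0.421 and 0.737 TPM in vehicle and 0.292, 0.683 and 1.12 in S217879 livers. Of the S217879 livers 9 were above the vehicle median and 3 above the highest vehicle liver, while the lowest of all 20 was S217879 replicate 10. With the minimum lowered to 0.1 TPM, at which 4.69% of 21416 genes were called higher, Asns was higher by 0.29 on the log2 scale (0.463 ± 0.117 and 0.692 ± 0.233; SE 0.10, limma adjusted p = 0.0410). With no minimum at all the limma adjusted p was 0.0690.

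Psat1 (chr19:15904678-15947337, minus strand) and Phgdh (chr3:98313170-98339990, minus strand) encode 2 of the enzymes that make serine from a glycolytic intermediate. Psat1 was at 0.566, 0.998 and 1.25 TPM in vehicle and 0.715, 1.11 and 1.63 in S217879 livers, and was not called (log2 difference 0.11, SE 0.11, limma adjusted p = 0.453). Phgdh was at 0.442, 0.681 and 1.66 TPM and 0.228, 0.583 and 0.839, with a difference of -0.26 in the fit with the lower minimum (SE 0.14, limma adjusted p = 0.176). The groups overlapped for both genes, and neither was called at these minima.

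**Figure D2:**
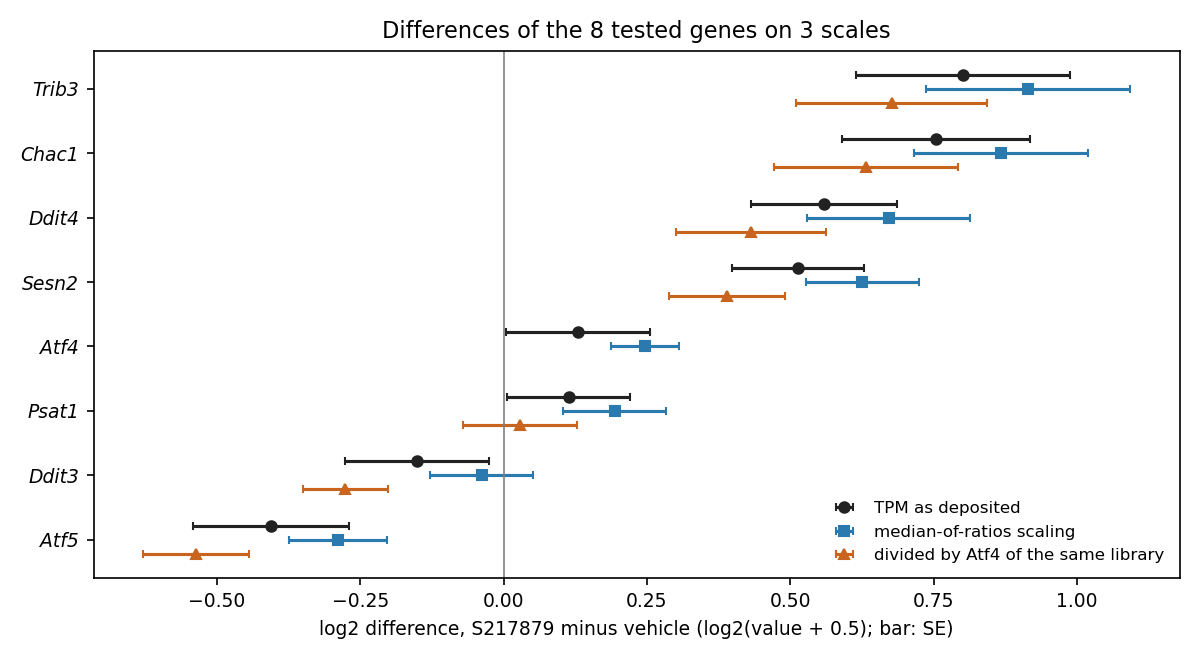
Log2 difference between S217879 and vehicle livers (horizontal axis, log2(value + 0.5)) for the 8 tested genes on 3 scales, TPM as deposited, after median-of-ratios scaling and divided by the Atf4 value of the same library; bars are standard errors, n = 10 a group. Trib3, Chac1, Ddit4 and Sesn2 lie right of 0 on every scale and Atf5 left of it.

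The ranking of the genes within a liver does not depend on how libraries are scaled. Per unit of gene length, Atf5 stood above Atf4 and Atf4 above each of the other 8 genes in 20 of 20 livers. At the other end, Psat1 stood above Asns in all 20, Psat1 above Phgdh in 8 of 10 vehicle and 10 of 10 S217879 livers, and Asns above Phgdh in 3 and 7.

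In the middle of the ranking the order differed between the groups, in pairs singled out after the values were seen. Ddit3 exceeded Trib3 in 8 of 10 vehicle livers and in 0 of 10 S217879 livers. It exceeded Chac1 in 9 and 2, Sesn2 in 10 and 2, and Ddit4 in 5 and 0. Trib3 exceeded Chac1 in 7 and 6, and Ddit4 exceeded Sesn2 in 10 and 10. Neighbours such as Trib3, Chac1 and Sesn2 had overlapping ranges within each group.

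As ratios of TPM in the same liver, 3 of the 28 pairs of tested genes did not overlap between the groups. Sesn2 over Atf5 was 0.0205 to 0.0274 in vehicle and 0.0329 to 0.0643 in S217879 livers. Trib3 over Ddit3 was 0.560 to 1.096 and 1.14 to 2.68, and Sesn2 over Ddit3 was 0.679 to 0.916 and 0.918 to 1.57. For the ratio to Atf5, 3.6% of all other tested genes were higher without overlap, and for the ratio to Ddit3 1.93%. The gap in the last pair was narrow, and all 3 were picked after seeing the values.

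Read against Atf4 in the same liver, an alternative chosen after seeing the data, Trib3 was higher by 0.68 (limma adjusted p = 0.00168), Chac1 by 0.63 (0.00197), Ddit4 by 0.43 (0.0068) and Sesn2 by 0.39 (0.00214). Atf5 was lower by -0.54 (limma adjusted p = 4.4e-05) and Ddit3 by -0.28 (0.00276). On this scale 6.1% of all genes were called higher and 55.9% lower, and the median log2 difference of all tested genes was -0.235. The median ratio of Trib3 to Atf4 went from 0.150 in vehicle to 0.230 in S217879 livers, and that of Atf5 to Atf4 from 5.64 to 3.81.

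Within each group, the livers were also asked whether the genes moved together. After median-of-ratios scaling, 28 pairs in each of the 2 groups gave 56 Pearson correlations over 10 livers each, of which 0 passed an adjusted p of 0.05 and 10 had an unadjusted permutation p under 0.05. By Spearman's rho 2 passed, both in vehicle livers. Trib3 and Sesn2 were close in both groups, with r = 0.830 and rho = 0.879 in vehicle (permutation p = 0.00256 and 0.00156; adjusted 0.0602 and 0.0437) and r = 0.821 and rho = 0.758 in S217879 livers (permutation p = 0.00419 and 0.0148; adjusted 0.0602 and 0.162). Without the 2 livers farthest from the median Trib3 value, r was 0.677 and 0.908.

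Atf5 tracked Ddit3 in vehicle livers (r = 0.801, permutation p = 0.00118, adjusted 0.0602; rho = 0.891, permutation p = 0.00123, adjusted 0.0437) and less so in S217879 livers (r = 0.268, permutation p = 0.449, adjusted 0.770; rho = 0.188, permutation p = 0.606, adjusted 0.759), a difference that was not tested. Without the 2 livers farthest from the median of Atf5, r was 0.707 and -0.47. Atf4 and Trib3 gave r = 0.145 and 0.429 (permutation p = 0.690 and 0.211, adjusted 0.815 and 0.562) and rho = 0.273 and 0.455 (permutation p = 0.446 and 0.191, adjusted 0.730 and 0.546). Without the 2 livers farthest from the median of Atf4, r was 0.244 and 0.389. As deposited, all 28 pairs in vehicle had a positive r and 8 passed the adjusted threshold, against 17 positive pairs after scaling, and vehicle replicates 6 and 7 share the low scale that the rRNA-type genes give them. In S217879 livers 22 of 28 pairs were positive as deposited and 26 after scaling, and 0 passed on either scale.

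**Figure D3:**
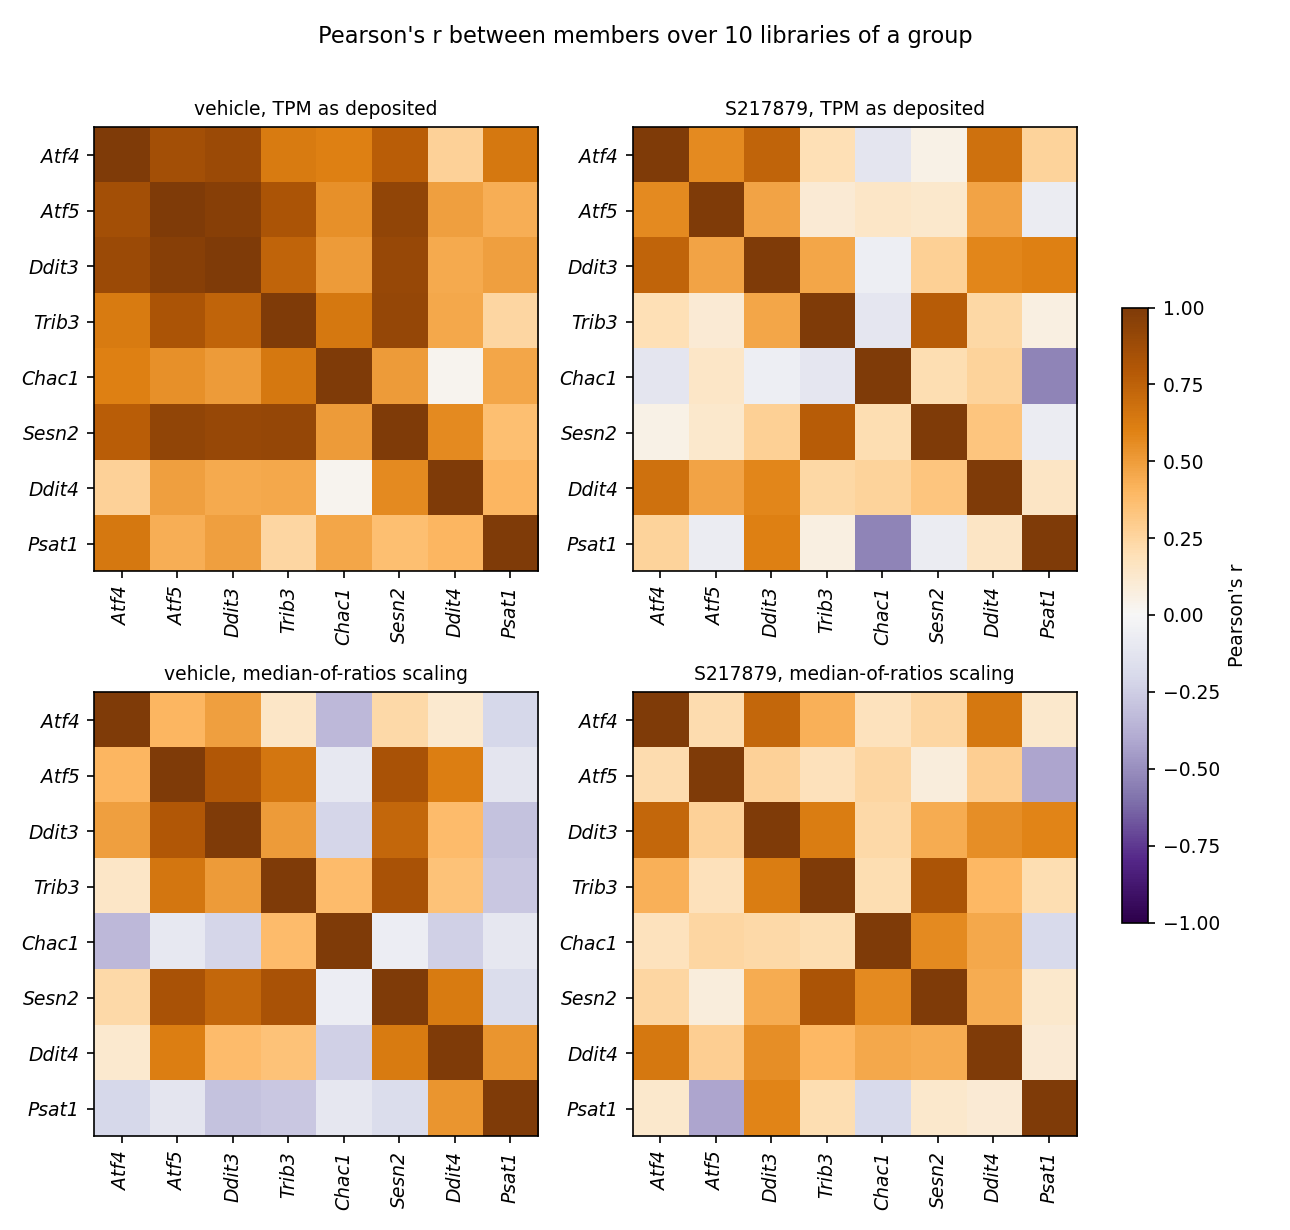
Pearson's r between each pair of the 8 tested genes over the 10 livers of a group (colour, from -1 to 1), for TPM as deposited (top) and after median-of-ratios scaling (bottom), vehicle left and S217879 right. The positive block of the vehicle livers as deposited becomes mixed in sign after scaling, with the Trib3 and Sesn2 pair high in all 4 panels.

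The other genes of the pathway were read in 13 lists of 165 tested genes in all, of which 14 were called higher and 30 lower (8.48% and 18.2%, against 6.07% and 23.5% of all tested genes). Upstream, the 15 genes for eIF2 kinases, eIF2 and eIF2B subunits and the phosphatase adaptors that reverse eIF2 phosphorylation gave 0 higher (1 at an unadjusted p under 0.05 by limma, and 1 by the exact Wilcoxon test) and 1 lower. The call was Eif2ak3, which encodes the endoplasmic reticulum kinase PERK and fell from 10.4 ± 2.23 to 7.03 ± 1.35 TPM (log2 difference -0.53, limma adjusted p = 4.98e-04; 9 of 10 S217879 livers below the vehicle median). After median-of-ratios scaling the list had 8 higher and 2 lower, Eif2ak3 among the lower with -0.42. Without vehicle replicate 6, 4 of the list were lower, when 38.8% of all tested genes were, and without replicate 7, 2, when 29.5% were.

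The bZIP partners and stress factors include proteins that pair with ATF4, CHOP or NRF2 on DNA. The list gave 0 higher and 7 lower of 15 by limma, as deposited and after median-of-ratios scaling. It also had 0 higher at an unadjusted p under 0.05 and by the exact Wilcoxon test. Atf3, a repressor induced by ATF4, fell from 9.08 ± 1.31 to 3.77 ± 0.821 TPM (log2 difference -1.18, limma adjusted p = 7.4e-11), and Maff, a small MAF partner of NRF2, fell from 22.0 ± 5.03 to 9.54 ± 1.93 (-1.16, limma adjusted p = 1.1e-09). Neither overlapped between groups. Jun, Fos, Nfe2l2 (the gene of NRF2 itself), Nupr1 and Cebpg made up the other 5; the last 5 are named to complete the list, after their values were seen. Cebpg, the main partner of ATF4 at composite elements, fell by 0.37 on the log2 scale (limma adjusted p = 0.0199), while Cebpb at -0.22 and Cebpa at -0.11 were not called. The median of the list was -0.22.

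Of the serine, glycine and folate one-carbon enzymes, 8 of 17 tested were higher as deposited and 1 was lower. Gldc, the decarboxylase of the glycine cleavage system, rose from 56.6 ± 14.3 to 144 ± 15.1 TPM (log2 difference 1.38, limma adjusted p = 8.9e-11), and Aldh1l1, a folate enzyme, from 368 ± 88.9 to 702 ± 96.3 (0.96, limma adjusted p = 1.1e-06), both without overlap between groups. The other 6 that rose, named after their values were seen, were Gnmt, Mthfd1l, Sds, Shmt2, Gcsh and Amt. Amt and Gcsh are further parts of glycine cleavage, and Sds and Gnmt consume serine and glycine. Of Shmt2, Psph and Mthfd2, known ATF4 targets outside the members, Shmt2 was called, while Psph at 0.03 and Mthfd2 at -0.12 were not. Scaling gave 12 higher and 1 lower, and the list median was 0.30; without vehicle replicate 6, 2 were lower.

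The amino acid transporters gave 1 higher and 3 lower of 11 tested. Slc6a9, a glycine transporter and known ATF4 target, rose from 15.9 ± 3.62 to 31.8 ± 5.80 TPM (log2 difference 0.99, limma adjusted p = 1.3e-07). Slc1a5, a glutamine carrier, and Slc38a1, another, fell by 0.48 and 0.44 on the log2 scale (limma adjusted p = 0.00205 and 4.9e-04). After scaling 1 was higher and 6 lower, without vehicle replicate 6 there were 8 lower, and without replicate 7 there were 7, in the fits with more lower calls over all genes given above.

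Among the proline, asparagine and glutamate enzymes 1 was higher and 5 were lower of 11. Aspg, an asparaginase, rose from 133 ± 37.4 to 253 ± 33.3 TPM without overlap (log2 difference 0.97, limma adjusted p = 9.7e-07). Got1, the cytosolic aspartate aminotransferase, fell from 114 ± 26.2 to 67.2 ± 18.6 TPM and Glul, glutamine synthetase, from 906 ± 198 to 574 ± 134. The lower count was 3 without vehicle replicate 1 or without S217879 replicate 3.

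Cytosolic aminoacyl-tRNA synthetases, many of which ATF4 is known to raise, gave 0 called of 20 as deposited by limma (3 higher and 0 lower at an unadjusted p under 0.05, and 0 by the exact Wilcoxon test), with Tars at 0.33 (limma adjusted p = 0.0509) and Mars at 0.31 (0.0538). Their counts depended on the scale, as those of all genes did: 13 were higher and 0 lower after median-of-ratios scaling, and 3 were higher and 11 lower after rescaling to the total outside the 4 rRNA-type genes, a scale on which 7.54% of all tested genes were higher and 64% lower. As deposited, 2 were higher without vehicle replicate 1 or 9 or S217879 replicate 2, 1 was higher without vehicle replicate 2 or 8 or S217879 replicate 5, and 1 was lower without vehicle replicate 6. The list's median was 0.01, or 0.12 relative to the median gene.

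Other genes reported as targets of ATF4 or CHOP gave 0 higher (2 at an unadjusted p under 0.05 by limma, 0 by the exact Wilcoxon test) and 4 lower of 17. Gdf15, a secreted stress hormone, fell from 26.0 ± 8.29 to 10.97 ± 4.15 TPM (log2 difference -1.21, limma adjusted p = 7.5e-05), and Vldlr, a lipoprotein receptor, from 2.44 ± 0.693 to 1.23 ± 0.2001 (-0.73, limma adjusted p = 6.3e-06). In both, all 10 S217879 livers lay below the vehicle median. Fgf21, a liver hormone that ATF4 is known to raise, had means of 10.6 and 15.6 TPM and was not called (log2 difference 0.47, limma adjusted p = 0.144), and after median-of-ratios scaling it was called higher (0.58, limma adjusted p = 0.0208). Scaling gave 8 higher and 5 lower, and without vehicle replicate 8 there was 1 higher. Genes known as ATF4 targets thus moved both ways in these livers. Of those named above as targets and called as deposited, Trib3, Chac1, Sesn2, Ddit4, Slc6a9 and Shmt2 were up and Atf3, Gdf15 and Vldlr down. Not all of the 4 lower genes of this list are named. Atf5, Nupr1, Cebpg and Slc1a5 also fell but were not described above as targets.

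The neighbouring branches were mostly not called as deposited. The 15 ATF6 and XBP1 genes, which answer misfolded protein in the endoplasmic reticulum, gave 0 called by limma (1 higher and 0 lower at an unadjusted p under 0.05; 0 higher and 1 lower by the exact Wilcoxon test). Hspa5, its main chaperone, had means of 272 and 273 TPM; scaling gave 6 higher, and rescaling to the total outside the rRNA-type genes gave 4 lower. Of 10 mitochondrial stress genes 1 was higher, the chaperone Trap1 (log2 difference 0.35, limma adjusted p = 0.0325), against 10 after scaling. That count was 0 without S217879 replicate 4 or 5 or vehicle replicate 7, and 2 without S217879 replicate 3 or vehicle replicate 1. In the ATF6 and XBP1 list 1 gene was higher without vehicle replicate 1 and 2 were lower without vehicle replicate 6.

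Lists that share regulators or partners with single members were read last. Of 14 TORC1 and sestrin genes 1 was higher, Ddit4l, the relative of Ddit4 (log2 difference 0.34, limma adjusted p = 0.0332), and 4 were lower. Sesn1, a sestrin relative, fell by 0.36 on the log2 scale (limma adjusted p = 0.0142) and Depdc5, part of a TORC1 inhibitor complex, by 0.37 (0.00271), whereas Sesn2 rose. The higher count was 0 when any of 7 libraries was left out (vehicle replicate 3, 4, 6 or 7, or S217879 replicate 1, 4 or 8).

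Of the Tribbles and bZIP relatives 2 of 5 were lower, Trib1 by -0.36 (limma adjusted p = 0.0134) and Atf7 by -0.30 (0.0207), and 0 were higher, also at an unadjusted p under 0.05 and by the exact Wilcoxon test. Glutathione breakdown genes gave 1 higher and 1 lower of 5, Ggt6 at 0.36 and Ggt5 at -0.44, and without S217879 replicate 9 or 10 there was 0 higher. Chac2, the constitutive relative of Chac1, had a difference of 0.17 and was not called. Among 10 glucocorticoid and insulin-sensitive genes, listed because Ddit4 responds to both hormones, 1 was higher, 2 were lower and 7 were not called. Fkbp5 rose from 14.7 ± 3.75 to 25.1 ± 6.16 TPM (log2 difference 0.76, limma adjusted p = 1.2e-04). Igfbp1 and Irs2 fell by 1.46 and 0.84 on the log2 scale (limma adjusted p = 5.8e-06 and 9.8e-05). Of those not called, Mt2 and G6pc had positive differences and Tsc22d3, Tat, Sgk1, Zbtb16 and Pck1 negative ones. Without vehicle replicate 6, or S217879 replicate 3 or 9, 2 of that list were higher.

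**Figure D4:**
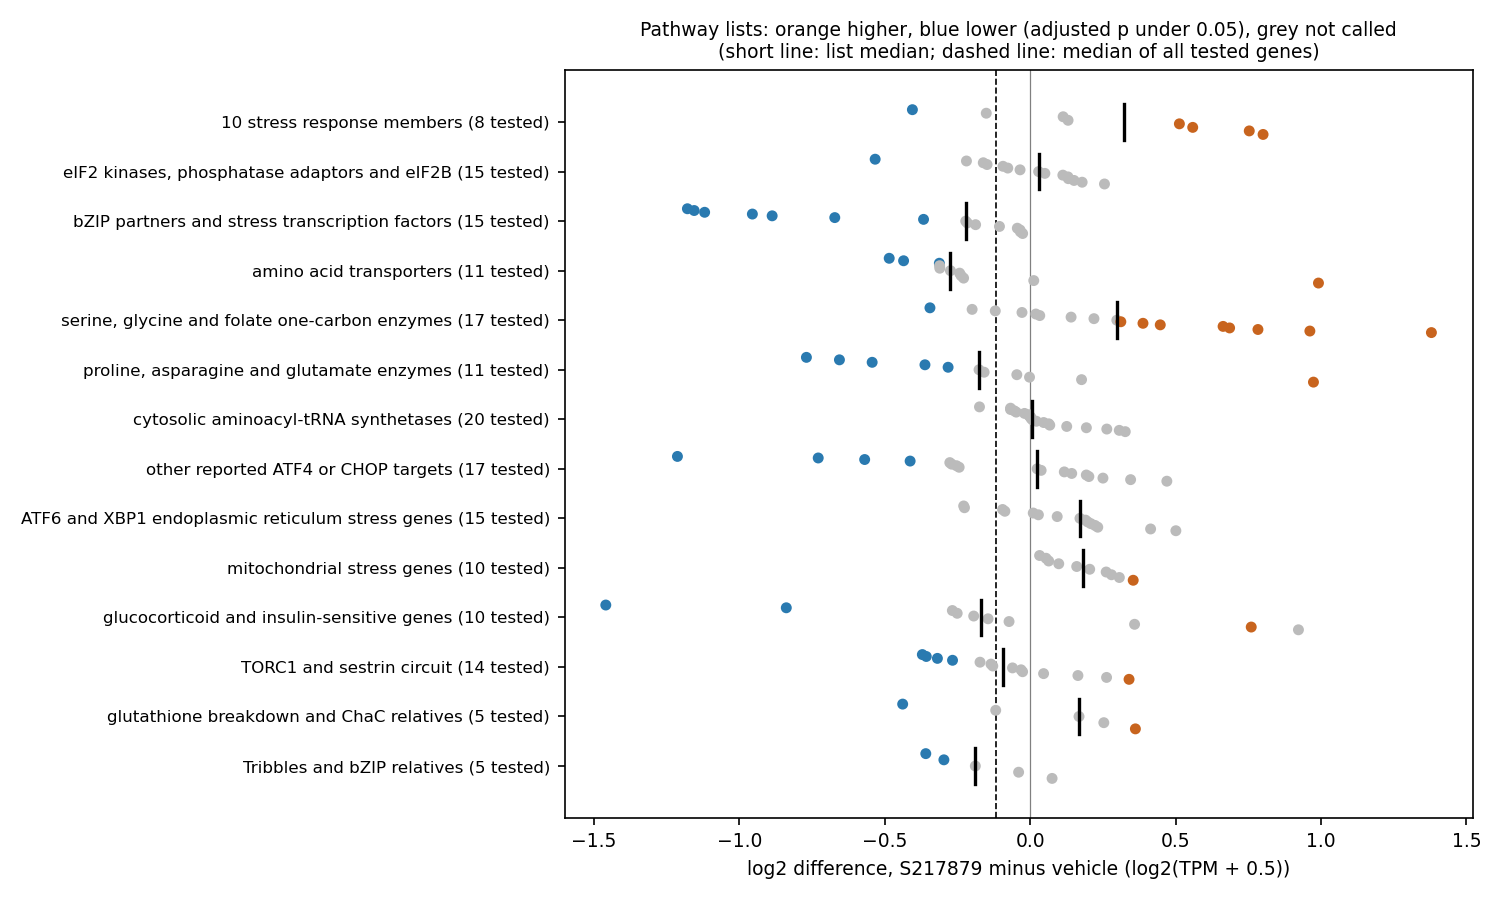
Log2 difference between S217879 and vehicle livers as deposited (horizontal axis) for each tested gene of the 10 members and of the 13 pathway lists; orange points are higher and blue points lower by limma, grey points are not called, the short line is a list's median and the dashed line the median of all tested genes, -0.12. The bZIP partners hold 7 blue points and no orange ones, and the serine, glycine and folate enzymes hold 8 orange points and 1 blue one.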

How the data were processed

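The deposited table holds TPM made by the authors, 49315 genes by 20 libraries, each summing to 1000000, a signal per gene length that keeps no read depth; precision is therefore the spread between mice. Per the labels' protocols, libraries came from a stranded polyA kit. Trimmomatic 0.36, STAR 2.5.2b, Subread 1.5.2 and featureCounts appear, with the build GRCm38, per the submitters' processing notes; annotation and use of strand: not given in the sources used here. Groups were taken from the treatment label, and 0 columns were left unmapped.

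Values were taken as log2(TPM + 0.5), which understates changes of low genes, for the 13401 genes whose mean reached 1 TPM. The group difference was tested with limma 3.58.1 under R 4.3.3 (eBayes with trend and robust) and Benjamini-Hochberg adjustment over all tested genes, adjusted p under 0.05. Whether mice came from separate cages or batches is not given. Correlations used two-sided permutation tests of 100000 resamples, adjusted over 56 relations for each coefficient. On simulated data with 13401 genes, 63 of 100 genes changed by 0.5 and 96 of 100 changed by 1 were recovered. Of 13201 unchanged genes, 4 were called. The simulated noise was drawn separately for each gene and library, so it lacked the scale that genes of a real library share. These rates therefore do not cover shifts of whole libraries. Coordinates are those of GENCODE M21 (GRCm38) and promoter sequences those of RefSeq.

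The members, lists and tests were chosen with earlier results of these data known. Named are the 10 members, of each pathway list the 2 called genes with the largest rise and the 2 with the largest fall, Nqo1, and 3 genes most like Atf4. Other named genes were chosen after their values were seen: genes not called that a reader would look for, the remaining called genes of a list, marker genes and overlapping neighbours. 1 called gene that the rule names is not reported here.

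Alternatives were pseudocounts of 0.1 and 1, minima of 0.1 and 5 TPM or none, median-of-ratios scaling, quantile normalization, leaving out libraries, rescaling without the 4 rRNA-type genes, eBayes without trend and robust, an exact Wilcoxon test and array weights. Division by Atf4, and 2 combinations with median-of-ratios scaling, were added after seeing the data.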

Additional observations from a re-analysis of the deposited data

Results flagged for a closer look

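In 2 of the 20 sets of 10 member values as deposited, 1 liver stood farther from the rest than Dixon's 95% value allows. Chance alone would give about 1 such set in 20. Asns in vehicle replicate 2 was 0.737 TPM against a vehicle median of 0.421. Phgdh in vehicle replicate 3 was 1.66 TPM against a vehicle median of 0.681. Neither gene reached the minimum for the main test.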

How the results depend on the processing

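The 4 members that rose did so in all 35 alternatives (4 to 4 when 1 library was left out). The count of members that fell was 1, and 2 after rescaling without the 4 rRNA-type genes, without vehicle replicates 6 and 7, or divided by Atf4, each time with Ddit3 added; it was 0 to 1 when 1 library was left out. Over the pathway lists, 14 genes were higher and 30 lower. Higher counts were 71 with median-of-ratios scaling, 61 with quantile normalization, 71 with scaling and a minimum of 0.1 TPM, and 62 with scaling without vehicle replicates 6 and 7. Lower counts were 19 with a minimum of 5 TPM, 88 after rescaling without the rRNA-type genes, 67 with array weights, 65 without vehicle replicates 6 and 7, and 73 divided by Atf4. Lower calls over all tested genes rose as well, from 23.5% to 64%, 59.9%, 54.5% and 55.9% in the last 4 of these in the order given, where the lists had 53.3%, 40.6%, 39.4% and 44.2%. Median-of-ratios scaling likewise raised higher calls over all genes from 6.07% to 26.6%, where the lists had 43%. Quantile normalization gave 26.4% over all genes and 37% in the lists, and scaling without vehicle replicates 6 and 7 gave 24.1% and 37.6%. With scaling and a minimum of 0.1 TPM 17.9% of all tested genes were higher, and with a minimum of 5 TPM 19.5% were lower. Leaving out 1 library gave 11 to 19 higher and 27 to 48 lower, the last without vehicle replicate 6, when 38.8% of all tested genes were lower. Member pairs that passed were 0, and 8 as deposited. Psat1 was called higher only with quantile normalization (0.31, limma adjusted p = 0.00602). A minimum of 5 TPM tests fewer genes. For the other changes the cause was not tested. No paired analysis was possible because the labels number every mouse separately. Read depth is unknown, so the limits on Asns and Phgdh cannot be given in reads.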

Other observations

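The 3 genes outside the 10 members whose levels were most like those of Atf4 within both groups were Yrdc, Ftsj1 and Ficd. Likeness was the lower of the 2 Pearson correlations over 10 livers a group after median-of-ratios scaling, given as a description. Yrdc, which acts in a modification of tRNA, gave 0.866 in vehicle and 0.853 in S217879 livers. Ftsj1, a tRNA methyltransferase, gave 0.817 and 0.863, and Ficd, which regulates the chaperone BiP, gave 0.818 and 0.811.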
